A study of Mus musculus with 16 samples.

Results

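The 10 genes described here carry the best known immune checkpoints and the regulatory T cell identity: Foxp3, Il2ra, Ctla4, Icos, Pdcd1, Cd274, Pdcd1lg2, Tigit, Lag3 and Havcr2. They were chosen by name, as 10 of the 23179 genes in the table, and all 10 were among the 21218 genes tested, which reached 10 normalized counts in 4 or more libraries. Each was compared between groups by its level and relative to Cd3e, a subunit of the T cell receptor complex, in the same library.

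RNA-Seq of total RNA was done on the tumor-free mammary fat pad of the opposite side in female wild type C57BL/6N mice, 8 weeks old on arrival, in 16 libraries, with 4 mice in each of 4 groups. CON-LFD mice ate a low-fat diet (10% kcal from fat) throughout. DIO-HFD mice ate a 60% high-fat diet throughout, DIO-LFD mice were moved from that diet to the low-fat diet after 15 weeks, and DIO-VSG mice were moved likewise and had vertical sleeve gastrectomy (VSG), the removal of the outer part of the stomach. The other 3 groups had a sham operation, and all mice, the controls included, received E0771 mammary tumor cells in mammary fat pad 4 at 22 weeks, with fat pad 9 taken 4 weeks later. The labels give E0771 as the cell line of these samples, although the tissue is the normal fat pad of the host, so none of the values is from the tumor itself.

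Regulatory T cells restrain other lymphocytes. They depend on the transcription factor Foxp3, keep high surface amounts of the interleukin 2 receptor alpha chain (Il2ra) and of the inhibitory receptor Ctla4, and are numerous in the visceral fat of lean mice. Checkpoint receptors such as PD-1 (Pdcd1), Tigit, Lag3 and Tim-3 (Havcr2) dampen activated T cells when they meet their ligands, among them PD-L1 (Cd274) and PD-L2 (Pdcd1lg2) on myeloid, stromal and tumor cells. Icos is a costimulatory relative of Ctla4 that is high on activated and regulatory T cells.

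Library totals lay between 46907377 and 57610899 reads. Adipoq, which marks adipocytes, was between 30428 and 123530 normalized counts in every library, so the tissue label held. The libraries fell on either side of a gap in Cd3e. It was between 69.9 and 208 normalized counts in 4 libraries (CON-LFD replicates 2 and 4 and DIO-HFD replicates 2 and 3) and between 961 and 4974 in the other 12. B cell markers moved with the T cell genes: the summed level of the 15 B cell markers ranged from 1706 to 198096 in CON-LFD, 10312 to 286108 in DIO-HFD, 48437 to 95321 in DIO-LFD and 148345 to 196347 in DIO-VSG, and no marker was at 0 in all libraries. The summed level of the 11 lymph node stroma markers varied less, from 36624 to 110333. DIO-LFD replicate 1 was the lowest of its group in T cell markers (20886) and had the highest stroma sum of that group (75765). The mean log2 level of the same markers nevertheless followed Cd3e, with a Spearman rho of 0.93 over the 16 libraries, both sides of the gap together. Glycam1, made by the high endothelial venules of lymph nodes, was 7.42 to 1650 in the 4 libraries low in Cd3e and 3990 to 24584 in the other 12. Ccl21a, also among the stroma markers, was 135 to 1093 and 5121 to 37665. The part of lymph node tissue in the results below was not tested. In bulk tissue, fewer cells of a type and less RNA per cell cannot be told apart.

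No member passed an adjusted P of 0.05 in limma in any of the 6 comparisons between groups, by level or relative to Cd3e. By level the same test called 0.0377% of all genes for DIO-HFD against CON-LFD, 0.00471% for DIO-LFD against CON-LFD and 0% for the other 4. Relative to Cd3e it called 0.00471% for DIO-VSG against DIO-HFD and against DIO-LFD and 0% for the other 4. At an unadjusted P below 0.05, with no member called, there were 6 members in DIO-VSG against CON-LFD by level (17.8% of all genes), 1 in DIO-VSG against DIO-HFD (13.2%), 1 in DIO-VSG against DIO-LFD (9.71%) and 0 in DIO-HFD against CON-LFD (12.9%), DIO-LFD against DIO-HFD (8.53%) and DIO-LFD against CON-LFD (6.26%). Relative to Cd3e there were 0 members in each comparison, beside 0.222%, 17% and 0.189% of all genes for DIO-HFD against CON-LFD, DIO-VSG against DIO-HFD and DIO-LFD against DIO-HFD, and 0.476%, 27.1% and 0.259% for DIO-VSG against DIO-LFD, DIO-VSG against CON-LFD and DIO-LFD against CON-LFD. By level these numbers moved when 1 library was left out. For DIO-VSG against DIO-LFD there were 0 members in 5 of 16 fits (1085 to 1834 of all genes). Without CON-LFD replicate 3 there were 3 for DIO-LFD against CON-LFD (2654 genes) and 1 for DIO-HFD against CON-LFD (4178 genes). Without DIO-HFD replicate 2 there were 2 for DIO-HFD against CON-LFD (2969 genes). What follows is therefore mostly a description of levels, and no difference is called unless a test is named.

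Foxp3, the lineage factor of regulatory T cells, lies at chrX:7573644-7595245 on the plus strand of GRCm38. Other genes of the table overlap it on the opposite strand (Ccdc22, Gm36995 and Ppp1r3f), so its reads depend on a strand-aware count. The RefSeq table (GRCm38.p6) holds start-site windows of 300 bases, from 250 before to 50 after the start, for 8 of the 10 members. The first of 2 Foxp3 windows is shown because Foxp3 is the defining gene of the set, and that of Ctla4 because regulatory T cells depend on this receptor. Capitals mark GGAAA, the core bound by NFAT factors downstream of the T cell receptor, or its reverse complement TTTCC.
Foxp3, chrX:7579426-7579725, plus strand: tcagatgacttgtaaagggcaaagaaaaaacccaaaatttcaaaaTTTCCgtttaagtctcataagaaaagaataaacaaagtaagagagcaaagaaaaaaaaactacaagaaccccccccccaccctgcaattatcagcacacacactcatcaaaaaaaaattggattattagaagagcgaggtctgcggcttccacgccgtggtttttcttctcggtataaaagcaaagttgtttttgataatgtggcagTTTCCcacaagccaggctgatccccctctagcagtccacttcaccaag
Ctla4, chr1:60908775-60909074, plus strand: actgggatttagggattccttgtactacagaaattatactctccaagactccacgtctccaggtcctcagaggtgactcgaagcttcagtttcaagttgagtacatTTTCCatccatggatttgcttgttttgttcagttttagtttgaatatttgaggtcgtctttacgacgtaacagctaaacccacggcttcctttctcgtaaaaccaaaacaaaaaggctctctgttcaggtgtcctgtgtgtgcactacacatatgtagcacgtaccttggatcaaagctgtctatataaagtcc
GGAAA on either strand was found in 8 of the 9 member windows and in 61.3% of the 32851 windows in the table. TATAAA, the TATA box core, was in 2 of the 9, the Foxp3 window shown and that of Ctla4, against 13.6% of all. TGACG, part of the cAMP response element, was in none of the 9 and in 20.8% of all, and TTCNNNGAA, the STAT motif, was in the second Foxp3 window alone and in 8.3% of all. All motifs were searched on both strands, matches of different motifs may overlap, and a match is a description of the letters only.

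Foxp3 was detected in every library, with 31 to 1885 reads. In CON-LFD it was 281, 32.9, 693 and 73.4 normalized counts in replicates 1 to 4. In DIO-HFD it was 1744, 73.0, 69.9 and 560. These groups each held low and high mice, and DIO-HFD replicate 1 was the highest library for Foxp3 and for each of the other 9 members. In DIO-LFD Foxp3 was 253, 281, 345 and 426, and in DIO-VSG it was 994, 827, 594 and 623. The DIO-VSG mice were all above the DIO-LFD mice, with no overlap, whereas both groups lay inside the range of DIO-HFD. On the log2 scale of normalized counts plus 1, Foxp3 was 1.21 ± 0.99 (SE, n = 4 per group) higher in DIO-VSG than in DIO-LFD, a 2.32-fold difference (exact permutation P = 0.0286, the smallest 4 against 4 can give, limma adjusted P = 0.6). The spread between mice was 1.68-fold from lowest to highest in DIO-LFD and 1.67-fold in DIO-VSG, but 21.1-fold in CON-LFD and 25.0-fold in DIO-HFD.

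Il2ra, the alpha chain that gives the interleukin 2 receptor its high affinity, is at chr2:11642807-11693193, plus strand, and overlaps Gm37881 of the table on the same strand. It was 482, 270, 894 and 489 normalized counts in CON-LFD. In DIO-HFD it was 1867, 315, 505 and 820. It was 441, 516, 536 and 628 in DIO-LFD and 1430, 1031, 845 and 983 in DIO-VSG. Again every DIO-VSG mouse exceeded every DIO-LFD mouse. Il2ra had the lowest unadjusted P of the members in that comparison, at a log2 difference of 1.0 ± 0.45 (SE, n = 4 per group; limma P = 0.0414, adjusted P = 0.51, exact permutation P = 0.0286). It varied less than Foxp3. Over all 16 libraries Il2ra spanned 6.91-fold and Foxp3 53.1-fold, and in the 4 libraries low in Cd3e Il2ra stayed at 270 to 505 while Foxp3 was at 32.9 to 73.4. The ratio of Il2ra to Foxp3 was 142% ± 13.6 in DIO-VSG and 165% ± 16.7 in DIO-LFD (SD, n = 4 each), against 448% ± 350 in CON-LFD and 352% ± 287 in DIO-HFD. Its lowest exact permutation P between groups was 0.0857, DIO-VSG against DIO-LFD.

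Ctla4, which takes the ligands Cd80 and Cd86 away from the activating receptor Cd28, and Icos lie side by side with Cd28 on chromosome 1 in GRCm38. Cd28 is at chr1:60716800-60773359, Ctla4 at chr1:60887000-60915832 and Icos at chr1:60977927-61000320, all on the plus strand. By these gene bounds, from GENCODE, Ctla4 starts 114.0 kb after Cd28 ends, and Icos starts 62.1 kb after Ctla4 ends. The RefSeq start-site window of Ctla4 shown above lies inside its bounds, further from Cd28. Ctla4 overlaps Rpl18-ps1 and Icos overlaps Gm37039 on the same strand, both in the table, so some reads may be shared. Ctla4 was 115, 26.5, 496 and 21.1 normalized counts in CON-LFD and 984, 33.2, 32.7 and 273 in DIO-HFD. It was 202, 163, 148 and 247 in DIO-LFD and 751, 620, 414 and 342 in DIO-VSG. Icos was 305, 37.1, 986 and 109 in CON-LFD and 2181, 112, 53.5 and 714 in DIO-HFD. It was 252, 421, 364 and 600 in DIO-LFD and 1500, 1056, 840 and 880 in DIO-VSG. The low mice of CON-LFD and DIO-HFD were the same for both genes, and for both genes DIO-VSG lay wholly above DIO-LFD. The log2 difference between those groups was 1.44 ± 1.06 for Ctla4 (limma adjusted P = 0.575) and 1.41 ± 1.05 for Icos (limma adjusted P = 0.579), each with an exact permutation P of 0.0286 (SE, n = 4 per group). The ratios within the cluster were steady between groups. Ctla4 was 23.4% ± 5.41 of Cd28 in CON-LFD, 25.2% ± 7.17 in DIO-HFD, 30.0% ± 11.1 in DIO-LFD and 27.0% ± 5.5 in DIO-VSG (SD, n = 4), and Icos was between 54.8% and 61.0% of Cd28 in the group means. No exact permutation P between 2 groups was below 0.4 for these 2 ratios.

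Pdcd1, the gene of PD-1 (chr1:94038305-94052553, minus strand), is induced on activated T cells. It was 34.2, 22.3, 246 and 18.1 normalized counts in CON-LFD and 364, 15.5, 12.0 and 131 in DIO-HFD. It was 84.1, 112, 83.9 and 83.8 in DIO-LFD and 204, 165, 141 and 107 in DIO-VSG. Here DIO-VSG and DIO-LFD overlapped by 1 mouse of each group, DIO-VSG replicate 4 and DIO-LFD replicate 2. The log2 difference was 0.73 ± 0.96 (SE, n = 4 per group, exact permutation P = 0.0571, limma adjusted P = 0.734).

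The ligands of PD-1 are neighbours on chromosome 19, Cd274 at chr19:29367455-29388095 and Pdcd1lg2 at chr19:29410919-29471161, both on the plus strand, with 22.8 kb between them. Their start-site windows are shown because these neighbours varied differently across libraries, with GGAAA or TTTCC again in capitals.
Cd274, chr19:29367188-29367487, plus strand: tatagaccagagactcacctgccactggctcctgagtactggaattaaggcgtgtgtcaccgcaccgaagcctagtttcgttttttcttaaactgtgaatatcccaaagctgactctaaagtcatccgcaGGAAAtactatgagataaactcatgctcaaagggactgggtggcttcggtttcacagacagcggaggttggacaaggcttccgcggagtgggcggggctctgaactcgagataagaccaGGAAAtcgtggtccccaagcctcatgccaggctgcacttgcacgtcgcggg
Pdcd1lg2, chr19:29410669-29410968, plus strand: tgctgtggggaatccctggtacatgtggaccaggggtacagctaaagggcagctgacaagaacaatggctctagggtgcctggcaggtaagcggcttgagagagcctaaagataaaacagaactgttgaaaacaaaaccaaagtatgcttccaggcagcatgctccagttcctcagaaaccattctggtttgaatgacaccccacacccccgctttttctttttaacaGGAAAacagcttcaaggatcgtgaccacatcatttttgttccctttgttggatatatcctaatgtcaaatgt
Cd274 had the steadiest level of the members. It was 1825, 2164, 2128 and 2188 normalized counts in CON-LFD and 2617, 1586, 2004 and 2033 in DIO-HFD. It was 1652, 1833, 1743 and 2079 in DIO-LFD and 2215, 1691, 2297 and 2323 in DIO-VSG. All 16 libraries lay within 1.65-fold, and the 4 libraries low in Cd3e (1586 to 2188) held the lowest value and otherwise lay inside the range of the other 12 (1652 to 2617). The precision was accordingly high. The log2 difference was -0.03 (95% interval -0.34 to 0.28) for DIO-HFD against CON-LFD, 0.06 (-0.25 to 0.37) for DIO-VSG against DIO-HFD, -0.16 (-0.46 to 0.15) for DIO-LFD against DIO-HFD and 0.22 (-0.09 to 0.52) for DIO-VSG against DIO-LFD, in limma with n = 4 per group. The adjusted P values of Cd274 were between 0.553 and 0.947 in all 6 comparisons. A change in PD-L1 RNA of more than 1.44-fold up, or below 0.711 of the compared group, was outside all 6 intervals.

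Pdcd1lg2 varied far more than its neighbour. It was 36.4, 2.12, 151 and 38.2 normalized counts in CON-LFD and 219, 14.4, 20.7 and 120 in DIO-HFD. It was 40.4, 73.4, 79.1 and 95 in DIO-LFD and 157, 137, 116 and 111 in DIO-VSG, where each mouse was above each DIO-LFD mouse. The lowest CON-LFD value stands for 2 reads, below the floor of 3 reads used here. The log2 difference of DIO-VSG against DIO-LFD was 0.9 ± 1.0 (SE, n = 4 per group, exact permutation P = 0.0286, limma adjusted P = 0.685). Per kilobase of exon, Cd274 was on average 559 and Pdcd1lg2 45.0 normalized counts, the highest and the lowest of the 10 members. Pdcd1lg2 overlaps A930007I19Rik of the table on the opposite strand.

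Tigit (chr16:43648867-43664146, minus strand) is an inhibitory receptor for Pvr. It was 29.8, 22.3, 154 and 15.1 normalized counts in CON-LFD and 334, 25.5, 49.1 and 103 in DIO-HFD. It was 65.5, 151, 36.2 and 62.3 in DIO-LFD and 138, 165, 89.3 and 82.0 in DIO-VSG, and these last 2 groups overlapped. The log2 difference between them was 0.72 ± 0.77 (SE, n = 4 per group, exact permutation P = 0.171, limma adjusted P = 0.676). Cd226, the activating receptor that competes with Tigit for the same ligand, was 564 ± 124 in DIO-VSG and 265 ± 102 in DIO-LFD, and Pvr itself was 1660 ± 302 and 2183 ± 1056 (SD, n = 4). Tigit was 21.8% ± 9.48 of Cd226 in DIO-VSG and 35.6% ± 28.2 in DIO-LFD (exact permutation P = 0.571).

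Lag3, a receptor for MHC class II (chr6:124904361-124911705, minus strand), had a narrow range. It was 328, 246, 540 and 192 normalized counts in CON-LFD and 717, 198, 157 and 430 in DIO-HFD. It was 270, 362, 369 and 461 in DIO-LFD and 606, 602, 616 and 512 in DIO-VSG, again with no overlap. Lag3 was 0.7 ± 0.41 higher on the log2 scale in DIO-VSG than in DIO-LFD (exact permutation P = 0.0286, limma adjusted P = 0.53) and 0.89 ± 0.41 higher than in DIO-HFD (limma P = 0.0469, adjusted P = 0.377; SE, n = 4 per group). That last difference was 0.56 without DIO-HFD replicate 3. Havcr2, the gene of Tim-3 (chr11:46454935-46481255, plus strand), is used by T cells, dendritic cells and macrophages. It was 210, 81.6, 499 and 94.5 in CON-LFD and 706, 93.0, 90.6 and 375 in DIO-HFD. It was 194, 341, 235 and 283 in DIO-LFD and 377, 604, 390 and 359 in DIO-VSG, with no overlap between the last 2 groups. Their log2 difference was 0.71 ± 0.64 (SE, n = 4 per group, exact permutation P = 0.0286, limma adjusted P = 0.628). Adgre1, the F4/80 macrophage antigen, ran the other way in these 2 groups. It was 1013 ± 547 in DIO-VSG and 1901 ± 723 in DIO-LFD (SD, n = 4), and CON-LFD replicate 4 stood at 18530, against 569 to 2914 in the other libraries, while its Havcr2 was 94.5.

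**Figure D1:**
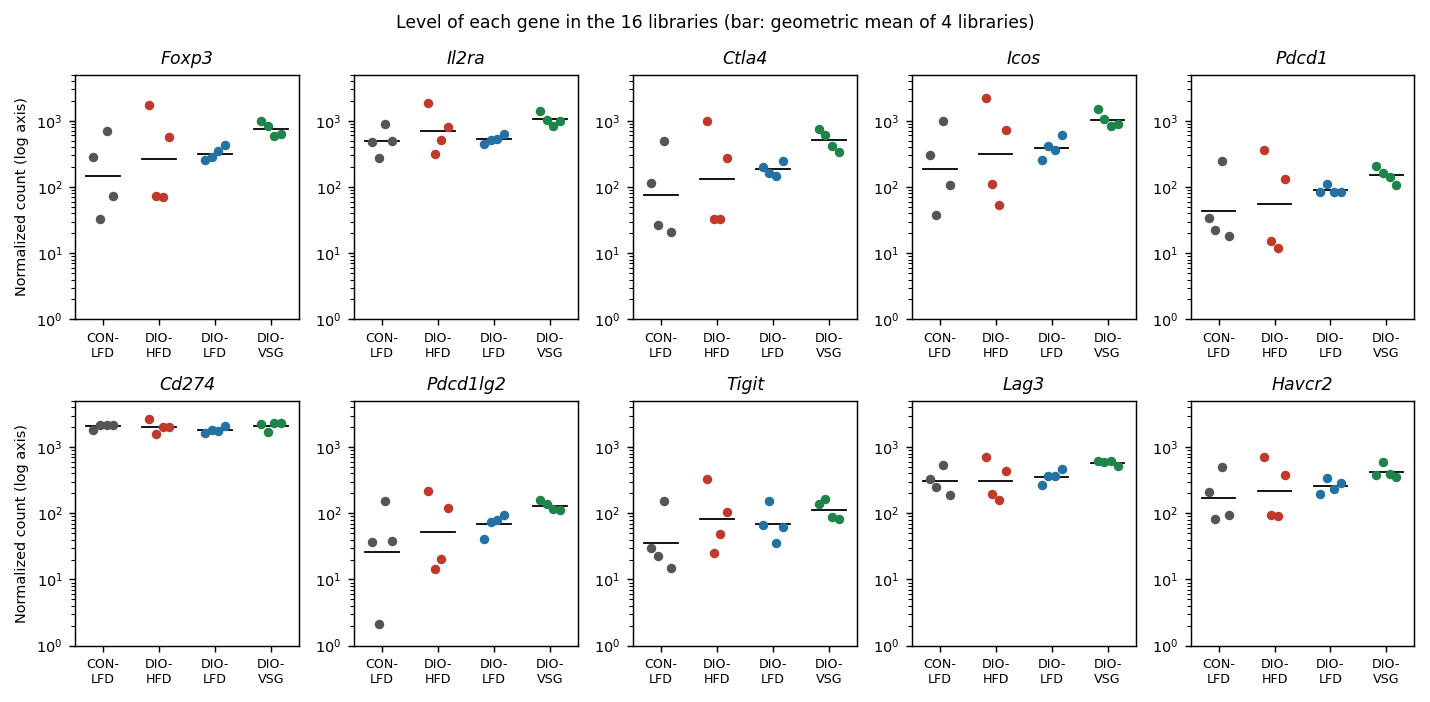
Normalized count (log axis, the same in every panel) of each of the 10 genes by group; each point is 1 library and each bar the geometric mean of the 4 libraries of a group. Each gene but Cd274 spreads less in DIO-LFD and DIO-VSG than in CON-LFD and DIO-HFD, and Cd274 stays between 1586 and 2617 throughout.

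DIO-HFD was set against CON-LFD, 2 groups that differ both in obesity and in the diet eaten to the end, which cannot be told apart here. The median log2 difference over the 10 members was 0.62, with 9 higher in DIO-HFD, beside a median of 0.02 and 52.7% of genes higher over all genes tested. Differences ran from -0.03 for Cd274, which was 0.11 when scaled to library totals, to 1.17 for Tigit, which was 0.5 without DIO-HFD replicate 1 and 1.87 without CON-LFD replicate 3. Foxp3 differed by 0.84 (95% interval -1.28 to 2.97, n = 4 per group, limma adjusted P = 0.769). All 10 genes overlapped between these groups, where 1.76% of all genes were higher and 3% lower in DIO-HFD with no overlap. The direction rested on 1 library: without DIO-HFD replicate 1 the median over the members was -0.16 and the difference of Foxp3 was -0.06. T cell markers had a median difference of 0.63 and B cell markers of 1.14, with 24 of 24 and 15 of 15 higher and none called. With the mean level of the B cell markers as a covariate, an alternative added after seeing the data, the members' median was 0.03.

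Both weight loss groups were then set against the obese mice. For DIO-VSG against DIO-HFD all 10 members were higher, with a median log2 difference of 1.1 (all genes 0.02). The T and B cell markers were higher by more, with medians of 2.19 (24 of 24 higher) and 2.75 (15 of 15). With the B cell covariate the members' median was 0.0, and Foxp3, Il2ra, Pdcd1lg2, Tigit and Havcr2 had negative differences. Without DIO-HFD replicate 2, Tigit (-0.07) and Cd274 (-0.06) were lower in DIO-VSG. The largest differences were 1.93 for Ctla4, 1.73 for Icos, 1.47 for Foxp3, 1.41 for Pdcd1 and 1.25 for Pdcd1lg2. With 1 library left out they ranged from 1.28 to 2.9, 0.89 to 2.67, 0.84 to 2.38, 0.7 to 2.31 and 0.64 to 1.92 in that order, each highest without DIO-HFD replicate 1. The others were 0.95 for Havcr2, 0.89 for Lag3, 0.58 for Il2ra, 0.48 for Tigit and 0.06 for Cd274. Their ranges with 1 library left out were 0.53 to 1.52, 0.56 to 1.29, 0.2 to 1.05, -0.07 to 1.15 and -0.06 to 0.18 in that order. None passed the test (limma adjusted P from 0.377 to 0.843), the smallest exact permutation P was 0.171 with 4 mice per group, and all 10 genes overlapped between the groups (2.37% of all genes were higher and 4.22% lower without overlap), since DIO-HFD replicate 1 was above every DIO-VSG mouse. Without that library 7 members had an unadjusted P below 0.05, in place of 1, and the share of all genes was 27.5%, in place of 13.2%. In 12 of the 16 fits that leave out 1 library, and with limma-voom, library-total scaling, the replicate block or the 8 libraries alone, the number was 0. For DIO-LFD against DIO-HFD the median was 0.25, with 7 members higher, and the differences ran from -0.42 for Il2ra to 0.69 for Pdcd1. The direction of the median rested on single libraries: it was -0.21 without DIO-HFD replicate 2, -0.17 without DIO-HFD replicate 3 and 0.92 without DIO-HFD replicate 1, and it was -0.35 with the B cell covariate. All 10 overlapped, beside 3.01% of all genes higher and 1.5% lower without overlap. Foxp3 differed by 0.26 (95% interval -1.86 to 2.38, n = 4 per group, limma adjusted P = 0.979). The sign of single genes turned too: with 1 library left out Foxp3 ranged from -0.38 to 1.16 and Il2ra from -0.8 to 0.05.

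The clearest separation was between the weight loss groups, which share the low-fat diet and the starting obesity and differ by the surgery. All 10 members were higher in DIO-VSG than in DIO-LFD, with a median log2 difference of 0.82 (all genes -0.02, with 47.3% higher). With the B cell covariate that median was 0.33. For 7 of the 10 (Foxp3, Il2ra, Ctla4, Icos, Pdcd1lg2, Lag3 and Havcr2) no DIO-VSG mouse overlapped a DIO-LFD mouse, beside 12.9% of all genes higher and 5.83% lower without overlap. In limma over all 16 libraries none passed (smallest adjusted P 0.51). When the test was fitted on these 8 libraries alone, which leaves out the wide spread of CON-LFD and DIO-HFD, 5 members passed, beside 7.22% of all genes: Il2ra (adjusted P = 0.0188), Foxp3 (0.0195), Ctla4 (0.0226), Icos (0.0251) and Lag3 (0.0402), all higher in DIO-VSG, as were 5.92% of all genes. The call thus depends on which libraries set the estimate of the spread. The summed T cell markers were 66158 to 106831 in DIO-VSG and 20886 to 46751 in DIO-LFD, so the T cell genes as a whole separated these groups in the same way, and so did the B cell markers.

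**Figure D2:**
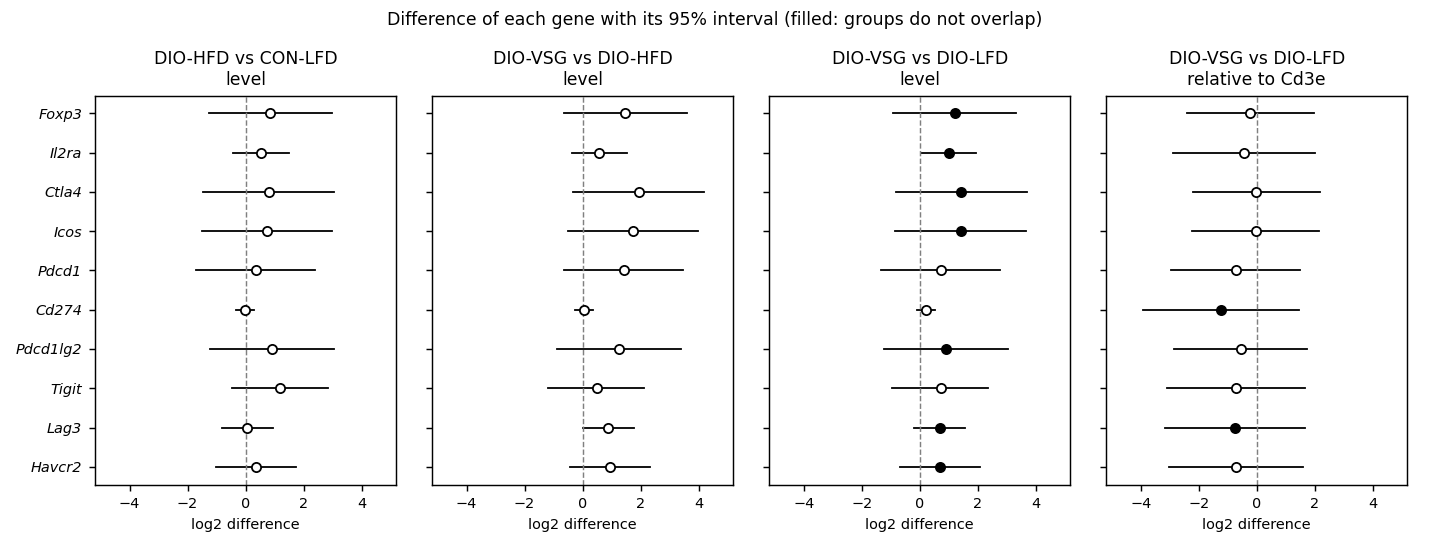
Log2 difference of each gene (point) with its 95% interval from limma (line), n = 4 libraries per group; filled points mark genes whose groups do not overlap. All 10 points lie above 0 for DIO-VSG against DIO-LFD by level, 7 of them filled, and all 10 lie below 0 relative to Cd3e, 2 of them filled.

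DIO-VSG stood highest against the lean controls too. The median over the members was 1.71 for DIO-VSG against CON-LFD, with all 10 higher. The T cell markers had a median of 2.76 (24 of 24 higher) and the B cell markers of 3.84 (15 of 15), and with the B cell covariate the members' median was 0.04 and Cd274 was at -0.05. The 6 members with an unadjusted limma P below 0.05 were Ctla4 (log2 difference 2.72), Icos (2.47), Foxp3 (2.32), Pdcd1lg2 (2.17), Il2ra (1.1) and Lag3 (0.94), with adjusted P values of 0.268 to 0.278, and groups overlapped for all 10, beside 2.59% of all genes higher and 4.43% lower without overlap. With 1 library left out these differences ranged from 2.12 to 3.62 for Ctla4, 1.7 to 3.26 for Icos and 1.61 to 3.06 for Foxp3. They ranged from 1.1 to 2.97 for Pdcd1lg2, 0.82 to 1.39 for Il2ra and 0.73 to 1.22 for Lag3. The number at an unadjusted P below 0.05 moved with single libraries, as it did for all genes. It was 0 without CON-LFD replicate 2 (9.72% of all genes) and without DIO-VSG replicate 1 (10% of all genes), and 9 without CON-LFD replicate 3 (30.5%) and without DIO-HFD replicate 1 (22.4%). For DIO-LFD against CON-LFD the median was 0.99 (0.27 without CON-LFD replicate 2, 1.74 without CON-LFD replicate 3 and -0.29 with the B cell covariate), beside 1.28 for T cell and 2.62 for B cell markers, with 9 members higher and Cd274 lower by -0.19 (95% interval -0.49 to 0.12, limma adjusted P = 0.873). No member separated these groups, beside 1.73% of all genes higher and 1.81% lower without overlap.

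Dividing by Cd3e in the same library asks whether a member moved beyond the T cell content of the sample. The normalized counts of Foxp3 per 100 of Cd3e were 21.0, 24.2, 18.3 and 42.9 in CON-LFD and 35.3, 35.1, 100 and 23.8 in DIO-HFD. They were 26.4, 28.6, 25.5 and 22.6 in DIO-LFD and 20, 28.8, 19.2 and 20.9 in DIO-VSG. In DIO-HFD 3 of the 4 mice were above all DIO-LFD and DIO-VSG mice, and the fourth was inside their range. The mean ± SD was 26.6 ± 11.2, 48.6 ± 34.7, 25.8 ± 2.48 and 22.2 ± 4.48 in lean controls, obese mice, diet-switched mice and operated mice respectively (n = 4). Relative to Cd3e, Foxp3 was thus lower in DIO-VSG than in DIO-HFD by a log2 difference of -0.92 (95% interval -3.11 to 1.27, exact permutation P = 0.0571, limma adjusted P = 0.419). It differed by -0.23 from DIO-LFD (95% interval -2.42 to 1.96, exact permutation P = 0.2, limma adjusted P = 0.851). Per Cd4, the marker of helper and regulatory T cells, Foxp3 was 19% ± 7.66, 30.3% ± 19.2, 16.7% ± 1.16 and 16.3% ± 2.16 in the same order (SD, n = 4). The exact permutation P of DIO-HFD against DIO-LFD and against DIO-VSG was 0.0857 each. Foxp3 per Cd3e in DIO-VSG was thus not above that in DIO-LFD or DIO-HFD in the group means, although its level was. The DIO-HFD library with the highest ratio is that with the least Cd3e, at 64 reads.

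All 10 members were lower relative to Cd3e in DIO-VSG than in DIO-HFD, with a median log2 difference of -1.29, and lower than in DIO-LFD, with a median of -0.64 (-1.66 to -0.7 and -0.75 to -0.37 with 1 library left out), although Ctla4 stood at -0.01 and changed sign (0.06) with the mean of the T cell markers as denominator. Most genes moved this way, because Cd3e itself was 2.4 and 1.44 higher on the log2 scale: the medians over all genes were -2.38 and -1.47, and 0.938% and 1.31% of genes were higher. Pdcd1 per 100 Cd3e was 4.49 ± 0.922 in DIO-VSG and 9.39 ± 5.27 in DIO-HFD (SD, n = 4; log2 difference -0.98, exact permutation P = 0.0571, limma adjusted P = 0.396). Tigit was 3.54 ± 1.49 and 23.4 ± 31.4 (log2 difference -1.92, exact permutation P = 0.0571, limma adjusted P = 0.154, n = 4). The DIO-HFD mean of Tigit rests on replicate 3, at 70.3 from 64 Cd3e reads, while the other 3 mice were at 6.76, 12.2 and 4.39. Without that library the log2 difference was -1.1 for Tigit, -0.63 for Pdcd1 and -0.5 for Foxp3. Between DIO-VSG and DIO-LFD, Ctla4 (15.4 ± 4.41 in both groups) and Icos (30.9 ± 4.18 and 32.0 ± 7.69; SD, n = 4) were the closest per 100 Cd3e. Lag3 was 17.5 ± 3.92 against 29.2 ± 5.38, and Cd274 was 63.8 ± 15.2 against 150.0 ± 35.8. These were the only 2 members whose ratios did not overlap (exact permutation P = 0.0286, n = 4 per group, limma adjusted P = 0.585 and 0.484), and 75.3% of all genes were lower and 0.00471% higher in this way. In the other 5 comparisons no member's ratios separated the groups: without overlap, 0.0189% of all genes were higher and 1.36% lower for DIO-VSG against DIO-HFD, 0.0189% and 0.0566% for DIO-LFD against DIO-HFD, 0.25% and 0.00471% for DIO-HFD against CON-LFD, 0.156% and 2.57% for DIO-VSG against CON-LFD, and 0.245% and 0.0471% for DIO-LFD against CON-LFD. In the fit of the 8 libraries alone both passed, with adjusted P values of 0.0352 for Lag3 and 0.002 for Cd274, as did 86.6% of all genes in the lower direction. A lower ratio of Cd274 to Cd3e thus goes with a steady Cd274 and a Cd3e that differed, as for most genes of the tissue. The log2 difference of Cd274 relative to Cd3e was -2.5 in DIO-VSG against CON-LFD (limma adjusted P = 0.123). It ranged from -3.38 to -1.78 with 1 library left out. Without CON-LFD replicate 3 Cd274 passed (limma adjusted P = 0.028), as did 84.6% of all genes. For DIO-HFD against CON-LFD, Foxp3 relative to Cd3e differed by 0.71 (0.29 without DIO-HFD replicate 3, exact permutation P = 0.257, limma adjusted P = 1.0), and for DIO-LFD against DIO-HFD by -0.69 (-0.27 without that library, exact permutation P = 0.114, limma adjusted P = 0.773; n = 4 per group).

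**Figure D3:**
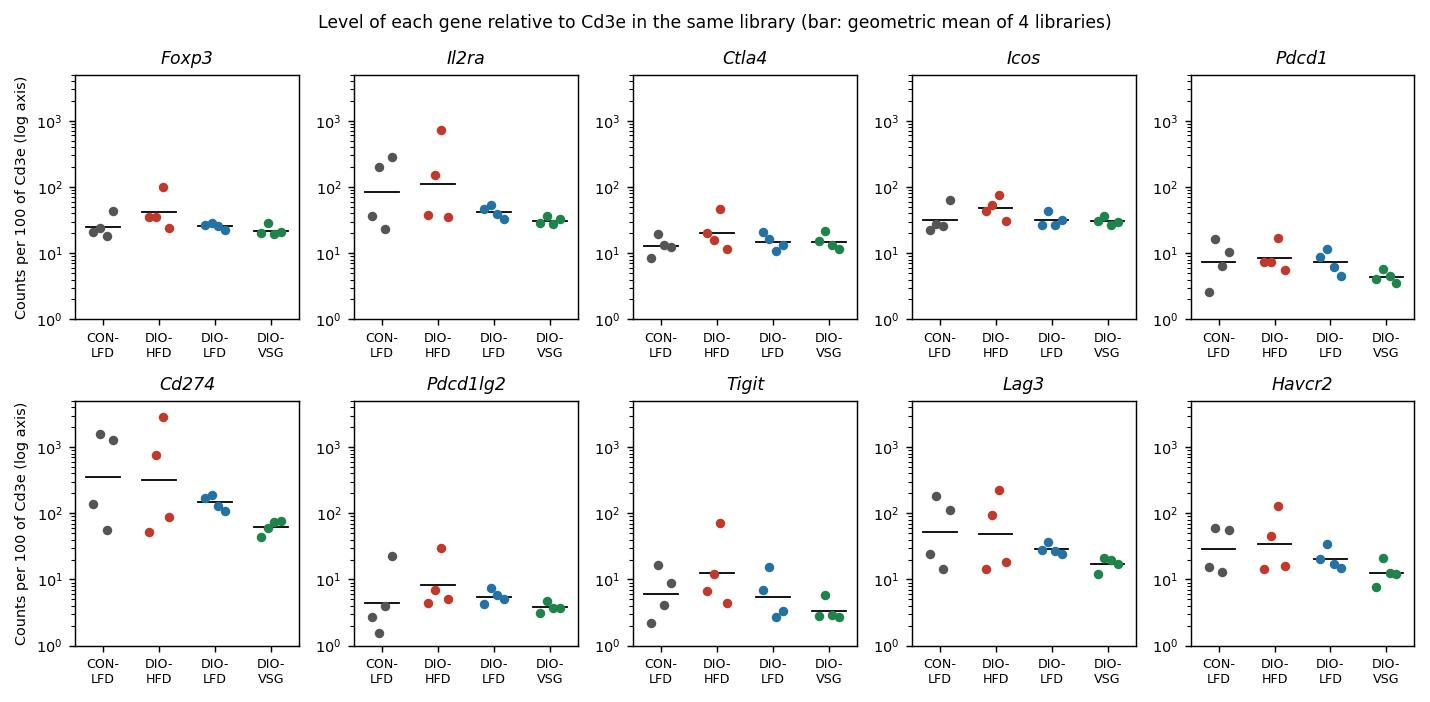
Normalized counts of each gene per 100 of Cd3e in the same library (log axis, the same in every panel); points are libraries and bars the geometric mean of 4. Foxp3, Ctla4 and Icos sit at similar ratios in DIO-LFD and DIO-VSG, Lag3 and Cd274 are lower in DIO-VSG without overlap, and the highest ratios are those of libraries low in Cd3e.

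Across libraries, how closely a member followed Cd3e differed between members. Because the libraries fall into separate clusters, correlations were taken within the 12 libraries above the gap, and the 10 P values are not adjusted. These 12 libraries come from 4 groups, and Cd3e did not overlap between DIO-LFD (961 to 1883) and DIO-VSG (2868 to 4974). The permutations ignored the groups, so r and its P value take in differences between groups as well as between mice. Foxp3 followed Cd3e with r = 0.94 and rho = 0.94 (permutation P = 1e-05, the smallest these permutations can give, and 7e-05), and r was 0.92 without the 2 libraries farthest from the median of Cd3e. Icos (r = 0.95), Il2ra (0.94), Lag3 (0.93), Ctla4 (0.91) and Pdcd1lg2 (0.89) were alike in this. Havcr2 (0.78), Pdcd1 (0.77) and Cd274 (r = 0.77, rho = 0.78, permutation P = 0.00401 and 0.00433) followed less closely. Tigit was loosest in the 12 libraries, with r = 0.62 and rho = 0.57 (permutation P = 0.0312 and 0.0559). Without the 2 farthest libraries the order turned: r was 0.9 for Tigit and for Pdcd1, and Cd274 was loosest at 0.71. Close following did not mean equal steps. In the same 12 libraries, 1 unit of Cd3e on the log2 scale went with 1.07 units of Icos, 1.06 of Ctla4, 0.94 of Foxp3, 0.8 of Pdcd1 and of Pdcd1lg2, 0.72 of Il2ra and of Tigit, 0.53 of Havcr2, 0.47 of Lag3 and 0.19 of Cd274, as fitted slopes and with no test. Lag3 thus had an r close to that of Foxp3 and a smaller slope. Over all 16 libraries, both clusters together, the slopes were lower for all 10, at 0.33 for Lag3, 0.31 for Il2ra and 0.03 for Cd274. In the 4 libraries below the gap, Lag3 was 95.2 to 225 and Il2ra 152 to 723 per 100 Cd3e, against 12.2 to 36.9 and 23.6 to 52.6 in the other 12.

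**Figure D4:**
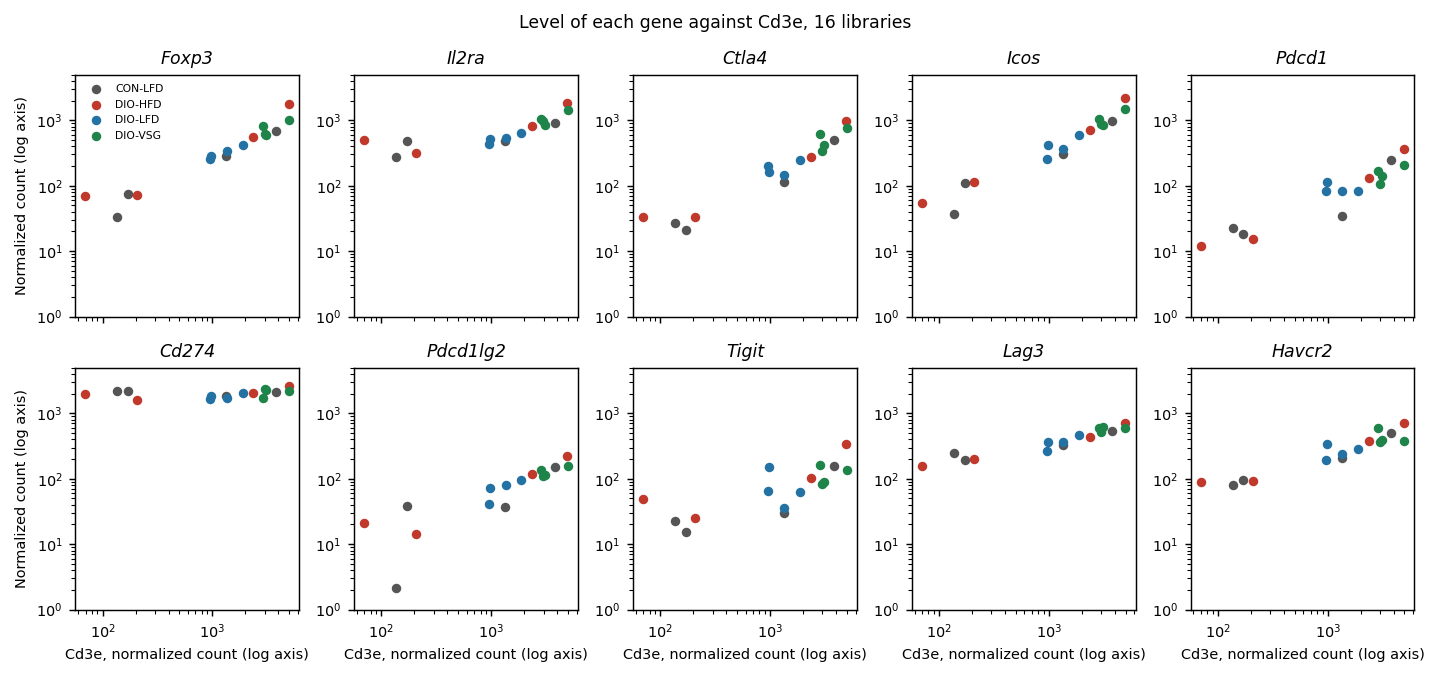
Normalized count of each gene against that of Cd3e (both axes log, the same in every panel); each point is 1 library, coloured by group. Foxp3, Ctla4 and Icos rise with Cd3e over the whole range, Lag3 and Il2ra rise less steeply, and Cd274 is nearly level.

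For each member, the 3 other genes with the most similar profile were listed by Pearson r over the 16 libraries among 21208 genes. This is a description, since all genes of a library share its cell makeup. Both clusters are pooled here, so these r values also take in any step between them and are not comparable with those above. Tnfrsf4, the costimulatory receptor OX40, was nearest to both Foxp3 (r = 0.991) and Icos (0.993). Foxp3 was followed by Gm614 and Slco5a1, and Icos by Klrk1 and Epsti1. The nearest genes were Traf1, Fcho1 and Tmc8 for Ctla4 (0.987 to 0.988), Pag1, Sema4d and Pank4 for Pdcd1 (0.976 to 0.982), Ly9, Arhgap30 and Rgs14 for Pdcd1lg2 (0.986 to 0.989) and Sharpin, Otulin and Cdc42se2 for Il2ra (0.97 to 0.981). They were Akap5, Slc17a9 and Gm37886 for Lag3 (0.981 to 0.986), Il2rb, Klra7 and Ighv1-5 for Havcr2 (0.979 to 0.98) and Snx25, Fut4 and Polm for Tigit (0.945 to 0.968). For Cd274 the likeness was weaker, with Clgn, Narf and Tmem64 at 0.757 to 0.825. Ighv1-5 is a gene segment of antibodies, so even a B cell transcript reached this degree of likeness.

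The wider pathway gave no calls either. Of the 17 checkpoint partners and ligands, 0 passed in any comparison, and for DIO-VSG against DIO-LFD 7 were higher and 10 lower, with a median log2 difference of -0.19. The ligands of Ctla4 and Icos on antigen-presenting cells had higher group means in DIO-VSG than in DIO-LFD and did not pass the test. Icosl, the ligand of Icos, was 5140 ± 482 against 2793 ± 474 (SD, n = 4, limma adjusted P = 0.583). Of the ligands of Ctla4, Cd80 was 144 ± 20.1 against 92.4 ± 13.5 and Cd86 1200 ± 143 against 799 ± 103 (SD, n = 4, limma adjusted P = 0.614 and 0.644). Lgals9, a ligand of Tim-3, was 3667 ± 448 against 4199 ± 523 (limma adjusted P = 0.552), and Nectin2, a further ligand of Tigit, was 1693 ± 210 against 2151 ± 405 (SD, n = 4). Of the 14 further inhibitory and costimulatory receptors, 12 were higher in that comparison (median 0.61) and none passed. Btla, which is abundant on B cells, was 8768 ± 2251 against 3834 ± 1186 (SD, n = 4). Of 30 genes of the regulatory T cell programme, 19 were higher and 11 lower (median 0.26) and none passed. Ikzf2, the gene of Helios, was 1880 ± 313 in DIO-VSG and 1174 ± 37.4 in DIO-LFD (SD, n = 4, limma adjusted P = 0.523). Per 100 Cd3e it was 55.7 and 98.0. In the 4 libraries low in Cd3e, Ikzf2 was 677 to 1163 and Foxp3 32.9 to 73.4. Il2rb was 2619 ± 539 and 1281 ± 149 (limma adjusted P = 0.599), and Il2rg was 7233 ± 741 and 3667 ± 511 (SD, n = 4). The genes of this list named here are all among the 19 that were higher. Il2, the growth factor of regulatory T cells, was at 0 to 34.2 normalized counts in all libraries. Of the 13 genes of the exhaustion programme, 12 were higher (median 0.58) and none passed. Tox, its central factor, was 686 ± 161 against 315 ± 70.5 (SD, n = 4, limma adjusted P = 0.561). For DIO-VSG against DIO-HFD, 9 of 17, 11 of 14, 21 of 30 and 10 of 13 were higher in these lists, with medians of 0.27, 0.59, 0.44 and 0.49 and again 0 calls.

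Markers of the other cells of the fat pad were set beside the members for DIO-VSG against DIO-LFD, and none passed the test. All 24 T cell markers and all 15 B cell markers were higher in DIO-VSG, with median log2 differences of 1.41 and 1.22, as were 7 of 11 lymph node stroma markers (0.76), 8 of 10 dendritic cell markers (0.55) and 7 of 8 natural killer cell markers (0.64). Of the macrophage markers 14 of 15 were lower (-0.63), and so were all 12 adipocyte markers (-0.42) and all 10 mammary epithelium markers (-0.48). The median of the 10 checkpoint and regulatory T cell genes, 0.82, lay below those of the T and B cell lists and above those of the others. The part of these cell types in the members' differences was not tested.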

How the data were processed

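The members and all gene lists were chosen with earlier results of these data known. The authors prepared stranded total RNA libraries, and their methods give alignment to GRCm38 with STAR, salmon abundances summed to genes, a minimum of 10 counts in total for a gene to be kept, and DESeq2. The submitters' processing notes name TopHat2 2.0.7, HTSeq 0.5.3p9 and DESeq2 instead, so the counting and its use of strand are uncertain, and removal of the lymph node was not described. The deposited values are on a log2 scale, from the authors' variance-stabilizing transformation (5.36 to 21.85), although the design assumed normalized counts. The transformation was inverted. Dividing by each library's step (size factors 0.9036 to 1.2204) gave whole reads, within 0.05, for 100.0% of values under 1000 reads. No column of values was left without a sample (0). Replicates are separate mice by their labels, and no pair of replicates was a duplicate (lowest chi-square per gene 67.5).

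Groups came from the sample titles. limma 3.58.1 (limma-trend, R 4.3.3) was fitted to log2(normalized count + 1) of all 16 libraries with group as the factor, and again after subtracting Cd3e, with 6 comparisons, two-sided tests and Benjamini-Hochberg adjustment over all genes tested. Values relative to Cd3e share its error. Exact permutation tests (two-sided, 70 assignments, unadjusted) compared 4 with 4 libraries; their smallest P is 0.0286. Folds are on the log2(value + 1) scale. The script was tested on simulated data by level, with 1 dispersion (0.0466) for all genes. The spread of the members differed between genes and groups, so that test gives no power for them. Positions and exon lengths came from GENCODE M21 (GRCm38) and start-site windows from RefSeq. For Foxp3 and Ctla4 the windows lie inside the GENCODE bounds and not at their edge. Genes named are the members, Cd3e, partners chosen by role and the 3 nearest genes of each member. The lists were those of the report and markers of T cells, B cells, lymph node stroma, macrophages, dendritic cells, natural killer cells, adipocytes and mammary epithelium. Alternatives were the deposited values, a pseudocount of 5, no filter, scaling to library totals, limma-voom, the 8 libraries of a comparison, a replicate block, each library left out and 2 other denominators; a B cell score as covariate was added after seeing the data.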

Additional observations from a re-analysis of the deposited data

Results flagged for a closer look

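Of 80 groups of 4 libraries examined (each member by level and relative to Cd3e), 6 had 1 library far from the other 3, with a gap to the nearest that was above Dixon's critical value for 4 samples. Chance alone gives about 1 in 20. By level, Pdcd1 was highest in DIO-LFD replicate 2 (112 normalized counts, gap 0.988 of the range). Lag3 was lowest in DIO-VSG replicate 4 (512, gap 0.875), and Havcr2 was highest in DIO-VSG replicate 2 (604, gap 0.842). Cd274 was lowest in CON-LFD replicate 1 (gap 0.848) and in DIO-VSG replicate 2 (gap 0.849). Relative to Cd3e, Tigit was highest in DIO-VSG replicate 2 (5.77 per 100 of Cd3e, gap 0.936).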

How the results depend on the processing

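With the 8 libraries of DIO-VSG and DIO-LFD alone, 5 members passed by level and 2 relative to Cd3e, where the fit of 16 libraries gave 0. Leaving out 1 library gave 0 to 1 members relative to Cd3e for DIO-VSG against CON-LFD (1 without CON-LFD replicate 3, where 84.6% of all genes passed) and for DIO-VSG against DIO-HFD (1 without DIO-HFD replicate 1, where 86.4% passed). The member was Cd274 in both (limma adjusted P = 0.028 and 0.027). Adding the mean log2 level of the B cell markers to the model, a choice made after seeing the data, gave different values: the members' median by level was -0.29 for DIO-LFD against CON-LFD and 0.04 for DIO-VSG against CON-LFD. With it Foxp3 differed by -0.1, Havcr2 by -0.03, Il2ra by -0.01, Pdcd1lg2 by -0.24 and Tigit by -0.46 for DIO-VSG against DIO-HFD, Foxp3 by -0.53 for DIO-LFD against DIO-HFD, and Cd274 by -0.05 for DIO-VSG against CON-LFD. Cd274 was 0.11 higher in DIO-HFD than CON-LFD with limma-voom and with scaling to library totals. Ctla4 relative to the T cell markers was 0.06 for DIO-VSG against DIO-LFD. Leaving out each library moved Cd274 from -0.15 to 0.09 (DIO-HFD against CON-LFD), -0.03 to 0.14 (DIO-VSG against CON-LFD) and -0.06 to 0.18 (DIO-VSG against DIO-HFD), Foxp3 from -0.06 to 1.58 (DIO-HFD against CON-LFD) and -0.38 to 1.16 (DIO-LFD against DIO-HFD), Il2ra from -0.8 to 0.05 (DIO-LFD against DIO-HFD), Tigit from -0.07 to 1.15 (DIO-VSG against DIO-HFD) and Ctla4 relative to Cd3e from -0.18 to 0.16 (DIO-VSG against DIO-LFD). The causes were not tested. The members' median by level ranged with 1 library left out from 0.69 to 0.96 for DIO-VSG against DIO-LFD, 0.63 to 1.72 for DIO-VSG against DIO-HFD, 1.27 to 2.47 for DIO-VSG against CON-LFD, -0.16 to 1.35 for DIO-HFD against CON-LFD, -0.21 to 0.92 for DIO-LFD against DIO-HFD and 0.27 to 1.74 for DIO-LFD against CON-LFD. Relative to Cd3e the other medians ranged from 0.02 to 0.88 (DIO-HFD against CON-LFD), -1.02 to -0.06 (DIO-LFD against DIO-HFD), -1.31 to -0.56 (DIO-VSG against CON-LFD) and -0.59 to 0.1 (DIO-LFD against CON-LFD). With a replicate block 0 members passed, as without it, and the members' median was 0.81 for DIO-VSG against DIO-LFD; same-numbered libraries deviated together in no regular way (r from -0.609 to 0.534 over 24 pairs, 7 of 16 libraries closest to their own number), so the numbers do not pair mice. Over all alternatives the count of genes called for DIO-VSG against DIO-LFD by level ran from 0 to 1533.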
